A study of Bos taurus with 24 samples.

Results

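The genes described here are the helpers of the cell's protein-folding machinery in bovine oocytes: co-chaperones that act with the heat shock proteins HSP70 and HSP90, the subunits of the chaperonin CCT (also called TRiC) and of its partner prefoldin, and the prolyl isomerases. They were chosen by gene symbol alone, as the entries of the deposited expression table whose symbol begins with DNAJA, DNAJB, DNAJC, PFDN, FKBP, AHSA or CDC37, is 1 of CCT2 to CCT8 or BAG1 to BAG6, starts with any of PPIA to PPIL, or is TCP1, STIP1, PTGES3, CHORDC1 or STUB1. This gave 92 of 11306 entries with 91 distinct symbols, because CCT6A is listed at 2 loci. Of the 92, 90 exceeded 0.1 FPKM in at least 1 library and were tested, and the other 2, DNAJC12 and DNAJC5G, did not. The heat shock proteins themselves were not chosen.

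RNA was measured in 24 libraries in 4 groups of 6, namely germinal vesicle (GV) oocytes and metaphase II (MII) oocytes collected in May, called spring, and the same stages collected in July, called summer. The oocytes were aspirated from sedated adult crossbred Angus-based beef cows, neither lactating nor pregnant, whose dominant follicles had been removed before the collections began and which were managed alike in both seasons. The sources differ on the number of cows. Oocytes were pooled in sets of 4 for a library, although the extraction protocol in the labels speaks of single cells. By the methods each pool came from a single animal. The oocytes of a cow were divided at random between the stages, so that libraries of different stages or seasons may share a donor. The labels do not name the donors. GV oocytes were stripped of cumulus cells after aspiration, and MII oocytes were matured in culture within their cumulus cells and stripped afterwards, so a difference between the stages is one of maturation in vitro. Values are FPKM, read fragments scaled to transcript length and to sequencing depth, so levels of different genes are given per length. Since every library was scaled to the same total, a value is a share of the measured mRNA, and fewer cells of a type and less RNA per cell cannot be told apart.

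HSP70 binds short stretches of unfolded protein in a cycle driven by ATP. J-domain proteins (the DNAJ genes) bring it substrates and start the ATP step, and BAG proteins release the nucleotide and so the substrate. HSP90 acts later, on nearly folded clients such as kinases and steroid receptors, and its co-chaperones load clients, hold its closed state or speed its ATPase. Prefoldin catches new actin and tubulin chains and passes them to CCT, a double ring that closes around them. Tubulin is the substance of the meiotic spindle that an oocyte builds on its way from GV to MII. Cyclophilins (the PPI genes) and FKBP proteins turn the bond before a proline, which can be the slow step of folding. A fully grown oocyte hardly transcribes and matures on stored mRNA, much of which is degraded or newly polyadenylated on the way. Whether a higher or lower value in MII oocytes reflects the amount of an mRNA or its polyadenylation was not tested.

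Some libraries stood apart. Relative depth, estimated from the steps between low values and set to 1 for the first spring GV library, was lowest for spring GV replicate 6 with 0.0565, followed by spring MII replicate 6 with 0.149 and summer GV replicate 2 with 0.393. It was 0.542 to 2.19 in 20 others and could not be solved for summer GV replicate 5. In these 3 shallow libraries 50, 38 and 46 of the 92 genes, in that order, had their group's highest value. The same count over all genes was not made, so this is not shown to be particular to these genes. The 92 genes together held 0.672% ± 0.187 (SD, n = 6) of the summed FPKM in spring GV, 0.674% ± 0.0833 in spring MII, 0.683% ± 0.12 in summer GV and 0.669% ± 0.0672 in summer MII oocytes. The 12 oocyte markers in the table, such as GDF9 and BMP15, were above the table's minimum of 0.01 in every library. Of 18 cumulus cell markers, 14 exceeded 0.1 FPKM in some library, and the defining receptor FSHR was at 0.01 in 21 libraries, whereas STAR, PTGS2, NR2F2, HAS2 and VCAN were above 0.01 in all 24. STAR alone had group means of 20.6 to 29.1 FPKM, and HAS2 had means of 0.297 in GV and 1.82 in MII oocytes in spring and 0.486 and 2.15 in summer. The markers' summed level was 22.6 to 91.7 FPKM in spring GV, 19.8 to 60.1 in spring MII, 22.6 to 77.8 in summer GV and 14.4 to 57.9 in summer MII libraries. The part of cumulus RNA and of depth in the results was not tested, but the counts and the values that moved most are also given without the 3 shallow libraries. In summer this leaves out a GV library only. Summer MII replicates 4 and 6, with depths of 0.568 and 0.542, were kept. Their cumulus marker sums were 54.9 and 57.9 FPKM, where the median of their group was 23.5 FPKM.

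A few genes made up most of the module. PFDN6 was the most abundant with a mean of 88.7 FPKM over the 24 libraries, followed by PFDN4 with 75.4, PPIA with 62.2, AHSA1 with 60.8 and PFDN5 with 41.6 FPKM. These 5 genes held 50.8% of the module's FPKM in spring GV and 59.6% in spring MII oocytes, and 54.1% and 60.2% in summer. DNAJA1 (25.3 FPKM), CCT8 (16.2), DNAJB1 (15.1) and CCT2 (13.8) were the other 4 of the 9 genes at or above 10 FPKM. A further 41 genes lay between 1 and 10 FPKM and 42 lay under 1 FPKM.

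The first question was which of these mRNAs differed between MII and GV oocytes. Among the members that moved in both seasons, 5 rose in MII oocytes: AHSA1, CDC37L1, PPIH, PPIL4 and DNAJB14. In both seasons 17 fell: the prefoldin subunits PFDN1 and PFDN5, the chaperonin subunit CCT3, the prolyl isomerases PPIB, PPIL2, FKBP2, FKBP3 and FKBP4, the HSP90 co-chaperones STIP1 and AHSA2, and the J-domain genes DNAJA3, DNAJA4, DNAJB1, DNAJC5, DNAJC14, DNAJC15 and DNAJC30. The plot of the spring change against the summer change shows both groups. In spring, 29 of the 90 genes passed (limma, Benjamini-Hochberg adjusted p under 0.05 over all 9526 genes tested), which is 32.2% against 24.2% of all genes. Of these 12 were higher and 17 lower in MII oocytes, beside 9.45% and 14.7% of all genes. In summer, 29 passed, again 32.2%, against 30.7% of all genes, with 6 higher and 23 lower beside 7.67% and 23.1%. Passing in both seasons with the same direction applied to 24.4% of the members and 18.0% of all genes. For the lower ones the shares were 18.9% and 13.2%, and for the higher ones 5.56% and 4.78%. The median log2 fold change of the members was -0.039 in spring and -0.048 in summer, beside -0.031 and -0.025 for all genes.

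**Figure D1:**
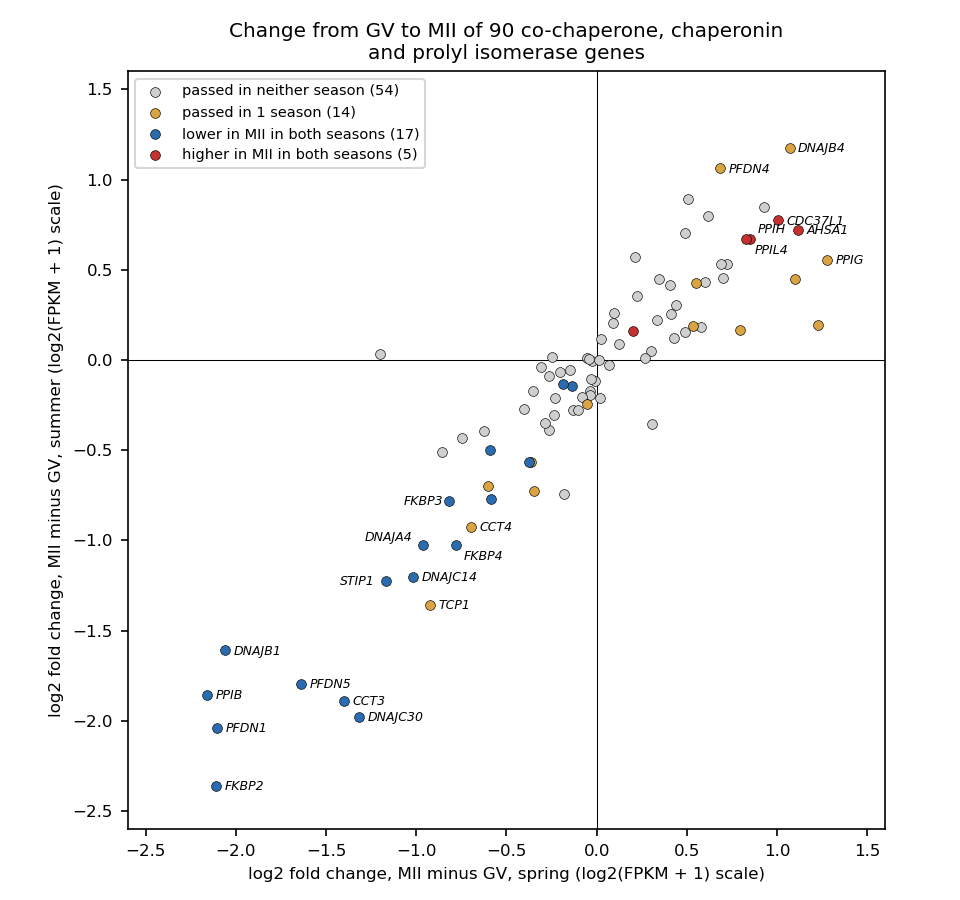
Log2 fold change of MII against GV oocytes on the log2(FPKM + 1) scale in spring (x axis) and in summer (y axis) for the 90 genes tested, 1 point per gene; lines mark no change. Blue points are the 17 genes lower in both seasons, red points the 5 higher in both, orange the 14 that passed in 1 season and grey the 54 that passed in neither, and most points lie in the lower left or the upper right.

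The direction was the same in both seasons for 82 of the 90 genes (91.1%), whether or not they passed, and for 85.5% of all genes, and the seasons share no libraries. MII and GV libraries did not overlap for 20 genes in spring and 15 in summer, beside 13.6% and 17.7% of all genes. Under the thresholds of the study, an unadjusted p under 0.05 and a fold over 2, spring had 15 such genes and summer 14, against 11.8% and 11.5% of all genes. Leaving out the 3 shallow libraries raised the spring count to 44 (23 higher, 21 lower) and the summer count to 41 (14 higher, 27 lower), while 41.9% and 39.3% of all genes passed. All 29 spring genes and 28 of the 29 summer genes were among those, with DNAJC18 as the summer exception, so the 22 genes that passed in both seasons did so again. Quantile normalization changed the split to 20 higher and 17 lower in spring and 24 higher and 19 lower in summer. These p-values measure the spread between pooled libraries, and the replicate numbers were not used as pairs.

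The prefoldin subunits, whose products form 1 complex, did not move together. Of the 5 subunits matched by the rule, PFDN1 and PFDN5 fell in both seasons, which is 40% beside 13.2% of all genes. PFDN4 rose in summer, and PFDN2 and PFDN6 passed in neither season. PFDN1 (chromosome 7, 53119767 to 53193429 on the UMD3.1.1 assembly) ranged from 5.45 to 28.3 FPKM (median 15.8) in GV and from 1.94 to 3.98 FPKM (median 2.53) in MII oocytes in spring. The groups did not overlap, and the log2 fold change was -2.10 ± 0.32 (SE, limma adjusted p = 7.63e-04). In summer it ranged from 3.16 to 22.3 FPKM (median 16.4) in GV and from 1.76 to 4.02 FPKM (median 2.45) in MII oocytes, a change of -2.04 ± 0.37 (SE, limma adjusted p = 0.00133). Here the groups overlapped through a single library, the shallow GV replicate 2 at 3.16 FPKM, and without the shallow libraries the changes were -2.41 and -2.40.

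PFDN5 (chromosome 5, 26886091 to 26890187), an alpha-type subunit that is also known as a MYC-binding protein, ranged from 43.5 to 87.6 FPKM (median 49) in GV and from 11.4 to 31.8 FPKM (median 17.2) in MII oocytes in spring, a change of -1.64 ± 0.30 (SE, limma adjusted p = 0.0023). Its summer values ran from 49.4 to 87.3 FPKM (median 63.1) in GV and from 10.8 to 33 FPKM (median 17.2) in MII oocytes, a change of -1.79 ± 0.30 (SE, limma adjusted p = 7.43e-04). All 12 GV libraries lay above all 12 MII libraries. PFDN4 (chromosome 13, 82399793 to 82402818), a beta-type subunit, went the other way in summer: from 36.7 to 58.8 FPKM (median 44.9) in GV and from 66.2 to 121 FPKM (median 95.7) in MII oocytes, without overlap (log2 fold change 1.06 ± 0.19 SE, limma adjusted p = 0.00141). In spring its GV libraries spread widely, from 22 to 163 FPKM (median 55.5), and spanned the MII range of 70.9 to 113 FPKM, a change of 0.68 ± 0.40 (SE, limma adjusted p = 0.223). The lowest of these GV values was that of shallow replicate 6. The highest was that of replicate 3, which held the group's highest cumulus marker sum of 91.7 FPKM.

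PFDN6, the most abundant of all, ranged from 28.4 to 112 FPKM (median 84.7) in GV and from 64.1 to 112 FPKM (median 99.3) in MII oocytes in spring and from 86.5 to 120.3 FPKM (median 103) in GV and from 60.1 to 96.4 FPKM (median 82.1) in MII oocytes in summer. Its log2 fold changes were 0.30 ± 0.31 and -0.36 ± 0.16 (SE, limma adjusted p = 0.47 and 0.11), and the ranges overlapped in both seasons. PFDN2 had medians of 5.1 and 8.85 FPKM in spring GV and MII oocytes and 8.53 and 9.34 in summer, with log2 fold changes of 0.43 and 0.12 (limma adjusted p = 0.36 and 0.534). Without the shallow libraries, where GV replicate 6 held 19.6 FPKM, the spring change of PFDN2 was 0.80 (limma adjusted p = 0.0128). The remaining subunit of the complex, VBP1 (prefoldin 3), does not carry the PFDN name and was not matched, and its log2 fold change was -0.88 (limma adjusted p = 0.0116) in spring and -0.56 (limma adjusted p = 0.0649) in summer.

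Ratios taken within a library, which do not depend on its scaling, show the same shift as a description only, since these pairs were picked after their values were seen. PFDN5 over PFDN4 had a median of 1.08 (0.305 to 3.67) in GV and 0.192 (0.102 to 0.449) in MII oocytes in spring, and a median of 1.45 (1.02 to 2.29) in GV and 0.171 (0.108 to 0.492) in MII oocytes in summer. PFDN1 over PFDN2 had a median of 3.37 (0.279 to 7.61) in GV and 0.281 (0.249 to 0.506) in MII oocytes in spring and a median of 2.05 (0.319 to 2.6) in GV and 0.26 (0.186 to 0.443) in MII oocytes in summer. The summer ratios of PFDN5 over PFDN4 did not overlap between stages, and the others did.

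The subunits of CCT did not move together either. CCT3 (chromosome 3, 14538748 to 14553307) was the 1 member of the 10 CCT entries that passed in both seasons, 10% beside 18.0% of all genes. It ranged from 4.94 to 10.7 FPKM (median 8.92) in GV and from 1.93 to 3.78 FPKM (median 2.23) in MII oocytes in spring, a change of -1.40 ± 0.22 (SE, limma adjusted p = 8.35e-04), and from 7.92 to 18.1 FPKM (median 10.5) in GV and from 1.73 to 3.52 FPKM (median 2.02) in MII oocytes in summer, a change of -1.89 ± 0.21 (SE, limma adjusted p = 4.61e-05). GV and MII libraries did not overlap in either season. TCP1, which encodes the alpha subunit, had values from 5.74 to 12.9 FPKM (median 7.48) in GV and from 1.91 to 3.85 FPKM (median 2.51) in MII oocytes in summer, again without overlap (log2 fold change -1.36 ± 0.20 SE, limma adjusted p = 3.06e-04). In spring its change was -0.93 ± 0.34 (SE, limma adjusted p = 0.0603), and -0.75 without the shallow libraries (limma adjusted p = 0.0121). Spring GV replicate 6 held 22 FPKM, the next highest GV library 7.15.

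CCT4 fell in summer, with values from 2.03 to 4.89 FPKM (median 3.18) in GV and from 0.766 to 2.33 FPKM (median 1.02) in MII oocytes (log2 fold change -0.92 ± 0.21 SE, limma adjusted p = 0.00504), and its spring change was -0.70 ± 0.29 (SE, limma adjusted p = 0.0947). CCT7 fell in summer by 0.73 on the log2 scale (limma adjusted p = 0.0419), with medians of 4.02 FPKM in GV and 2.23 in MII oocytes and overlapping ranges. That call was lost without GV replicates 3, 4 and 6 or MII replicates 1, 2, 3, 4 and 5 (adjusted p 0.0501 to 0.0828, log2 fold changes -0.77 to -0.62). In spring the change of CCT7 was -0.35 ± 0.21 (SE, limma adjusted p = 0.237).

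CCT2, encoding the beta subunit, was the 1 CCT entry that rose with all libraries, and it did so in spring: from 6.93 to 11.7 FPKM (median 9.17) in GV and from 12.6 to 19.6 FPKM (median 18) in MII oocytes, without overlap (log2 fold change 0.79 ± 0.20 SE, limma adjusted p = 0.0132). In summer the ranges overlapped almost fully, from 7.06 to 24.2 FPKM (median 13) in GV and from 6.27 to 26.6 FPKM (median 15.4) in MII oocytes, and the change was 0.17 ± 0.32 (SE, limma adjusted p = 0.725). CCT8, the most abundant CCT mRNA, had medians of 9.95 and 16.8 FPKM in spring GV and MII oocytes and 12.5 and 16.5 in summer, and its changes of 0.58 and 0.18 did not pass (limma adjusted p = 0.219 and 0.735), while without the shallow libraries the spring change was 0.75 (limma adjusted p = 0.0302). CCT5 had a log2 fold change of -0.13 in spring (95% interval -1.13 to 0.87) and -0.28 in summer (-1.40 to 0.84), intervals that hold changes of more than 1 log2 unit downward. The ratio of CCT3 to CCT8 within a library had a median of 0.847 (0.372 to 1.39) in GV and 0.142 (0.0925 to 0.227) in MII oocytes in spring and a median of 0.777 (0.466 to 1.1) in GV and 0.147 (0.0688 to 0.189) in MII oocytes in summer, without overlap, again a pair chosen after its values were seen.

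CCT6A, the zeta subunit, was listed at chromosome 2, 72589396 to 72592509 and at chromosome 25, 27985753 to 27994511. Each library had a value above 0.01 at exactly 1 of the loci: 12 libraries at the first and the other 12 at the second, 0 at both and 0 at neither. At the chromosome 2 locus the values reached 5.61, 2.75 and 1.9 FPKM in the shallow libraries of spring MII, spring GV and summer GV oocytes, at most 0.472 FPKM in any other spring library, and up to 1.15 FPKM in summer MII oocytes, where no library was among the shallow ones. All 6 spring MII libraries had their value at chromosome 2, against 1 of 6 spring GV, 1 of 6 summer GV and 4 of 6 summer MII libraries. No level of CCT6A is therefore compared between stages, and the log2 fold changes of 0.33 and 0.22 at chromosome 2 and -0.31 and -0.038 at chromosome 25 did not pass (limma adjusted p 0.225 to 0.605). Its relative CCT6B, known from testis, stayed at or below 0.676 FPKM.

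**Figure D2:**
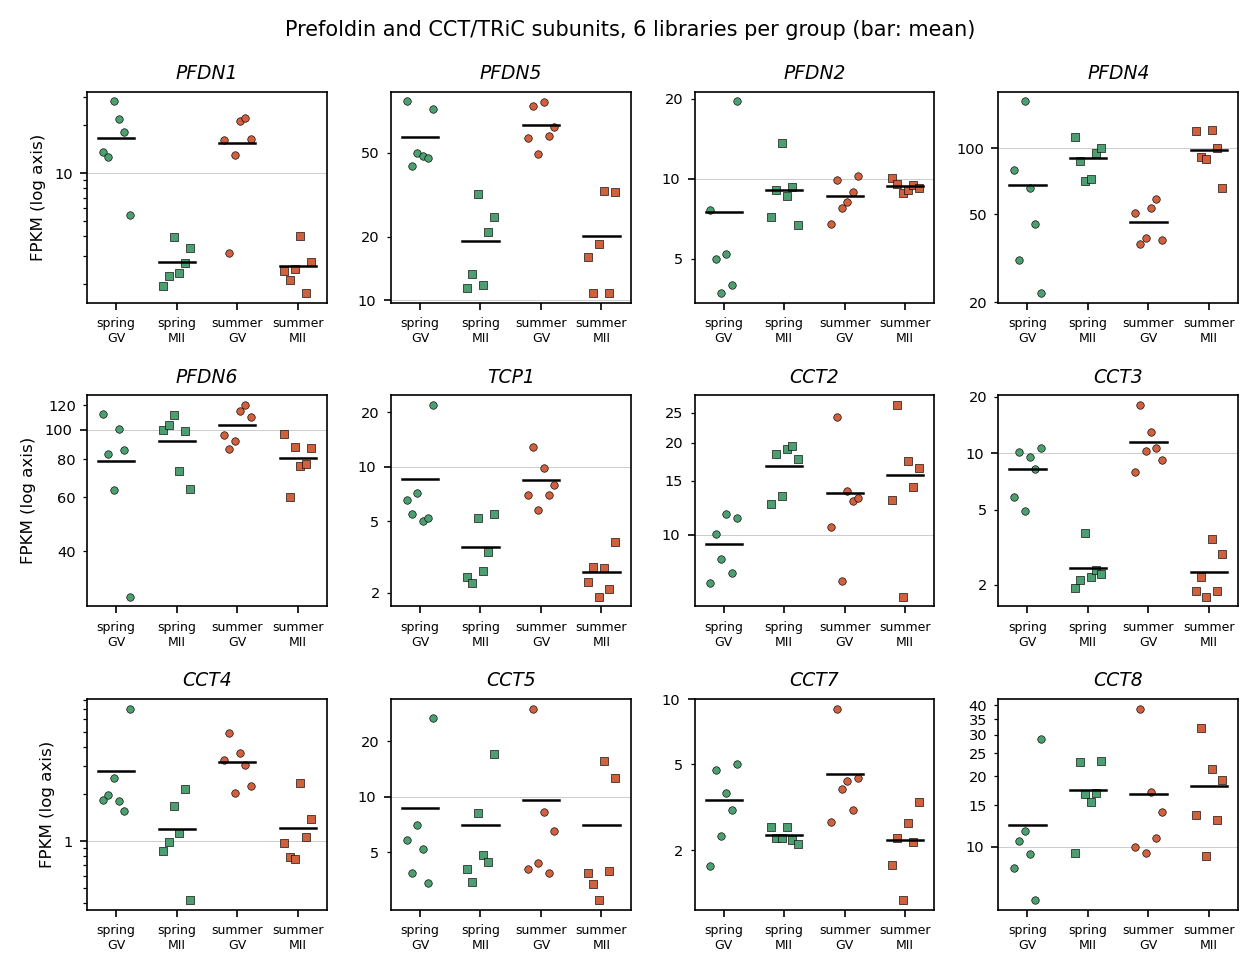
FPKM (log axis) of 5 prefoldin and 7 CCT subunits in the 24 libraries; circles are GV, squares MII, green spring, orange summer, and the bar is the mean of 6 libraries. PFDN1, PFDN5 and CCT3 lie lower in MII oocytes in both seasons, while PFDN4 lies higher in MII oocytes in summer; the isolated high spring GV points of TCP1, CCT4, CCT5, CCT8 and PFDN2 are replicate 6.

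Of the 34 J-domain genes tested, 7 fell in both seasons and 1 rose, which is 20.6% and 2.94% beside 13.2% and 4.78% of all genes. All 4 members of subfamily A were tested. DNAJA1, the most abundant J-domain mRNA and a general cytosolic partner of HSP70, ranged from 6.45 to 48.3 FPKM (median 12.6) in GV and from 20.3 to 67.7 FPKM (median 26) in MII oocytes in spring and from 8.63 to 26.4 FPKM (median 14.7) in GV and from 19.4 to 64.9 FPKM (median 25.7) in MII oocytes in summer. Its changes of 0.93 ± 0.45 (SE, limma adjusted p = 0.143) and 0.85 ± 0.32 (SE, limma adjusted p = 0.0598) did not pass with all libraries, and were 1.02 and 0.99 without the shallow ones (limma adjusted p = 0.0307 and 0.0251). DNAJA2, a close relative of it, had changes of 0.69 and 0.53 (limma adjusted p = 0.183 and 0.368).

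The other 2 members of subfamily A fell. DNAJA3, the mitochondrial member, ranged from 0.423 to 0.978 FPKM (median 0.515) in GV and from 0.144 to 0.382 FPKM (median 0.184) in MII oocytes in spring and from 0.397 to 1.66 FPKM (median 0.722) in GV and from 0.0733 to 0.374 FPKM (median 0.164) in MII oocytes in summer, without overlap in either (log2 fold changes -0.38 ± 0.10 SE, limma adjusted p = 0.0173, and -0.57 ± 0.15 SE, limma adjusted p = 0.0112). DNAJA4 changed by -0.96 ± 0.28 (SE, limma adjusted p = 0.0269) in spring, with medians of 2.12 FPKM in GV and 0.654 in MII oocytes, and by -1.03 ± 0.35 (SE, limma adjusted p = 0.0407) in summer. The shallow GV libraries held its highest GV values, 7.67 and 11.6 FPKM. Without the 3 shallow libraries, spring MII replicate 6 included, the changes were -0.79 and -0.72 (limma adjusted p = 0.00442 and 0.025). The spring call was lost without MII replicates 1, 2, 4 and 5 (adjusted p 0.052 to 0.063, log2 fold changes -0.94 to -0.90), and the summer call without GV replicates 3, 4 and 6 or MII replicates 1, 2, 3 and 5 (adjusted p 0.0574 to 0.0855, log2 fold changes -1.07 to -0.93).

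In subfamily B, 1 gene of 10 fell in both seasons, which is 10% beside 13.2% of all genes. It was DNAJB1 (chromosome 7, 12366856 to 12370537), the main heat-inducible J-domain protein of the cytosol. Its spring values ran from 10.1 to 148 FPKM (median 12.9) in GV and from 2.68 to 8.25 FPKM (median 3.54) in MII oocytes, without overlap, and its summer values from 7.54 to 39.7 FPKM (median 10.9) in GV and from 1.57 to 8.46 FPKM (median 3.07) in MII oocytes, with overlap. The log2 fold changes were -2.06 ± 0.56 (SE, limma adjusted p = 0.0189) and -1.61 ± 0.44 (SE, limma adjusted p = 0.0153). The 2 highest values were again those of the shallow GV libraries. Without the 3 shallow libraries the changes were -1.67 and -1.30 (limma adjusted p = 6.85e-04 and 0.0166). In spring this also left out MII replicate 6, the highest MII library of that season at 8.25 FPKM. DNAJB14, an ER membrane protein, rose from a low level, with medians of 0.0768 and 0.239 FPKM in spring GV and MII oocytes and 0.0754 and 0.20 in summer (log2 fold changes 0.20 ± 0.050 SE, limma adjusted p = 0.0125, and 0.16 ± 0.039 SE, limma adjusted p = 0.00921), a scale on which the added 1 FPKM dampens the change.

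DNAJB4 and DNAJB12 passed in spring only, at 1.07 ± 0.30 (SE, limma adjusted p = 0.0201) and 0.54 ± 0.10 (SE, limma adjusted p = 0.00186), both higher in MII oocytes. In summer the value for DNAJB4 was 1.17 ± 0.47 (SE, limma adjusted p = 0.0737), and the difference between the seasons was 0.10 ± 0.57 (SE). DNAJB6, known as a suppressor of protein aggregation, did not pass, at -0.23 and -0.21 (limma adjusted p = 0.732 and 0.784). DNAJB9, an ER stress gene named here after its values were seen, reached 45 FPKM in spring GV replicate 6, while its median was 0.183 FPKM in that group and its highest value in the 3 other groups was 1.13 FPKM.

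Subfamily C, the most varied, had 20 genes tested. In both seasons 4 fell, which is 20% beside 13.2% of all genes. DNAJC30, a mitochondrial protein, ranged from 1.62 to 9.28 FPKM (median 5.87) in GV and from 0.378 to 2.5 FPKM (median 1.88) in MII oocytes in spring and from 1.74 to 22.7 FPKM (median 4.22) in GV and from 0.159 to 1.03 FPKM (median 0.674) in MII oocytes in summer (log2 fold changes -1.32 ± 0.34 SE, limma adjusted p = 0.0145, and -1.98 ± 0.43 SE, limma adjusted p = 0.00413); the stages overlapped in spring but not in summer. DNAJC5, the cysteine string protein of secretory vesicles, fell without overlap in both seasons, by 0.59 and 0.50 on the log2 scale (limma adjusted p = 0.00384 and 0.00205). DNAJC15, of the inner mitochondrial membrane, fell without overlap as well, at medians of 0.221 and 0.0799 FPKM in spring and 0.173 and 0.0694 in summer (log2 fold changes -0.19 and -0.14, limma adjusted p = 0.0098 and 0.00155). Its summer call was lost under quantile normalization (log2 fold change -0.071, limma adjusted p = 0.0714).

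DNAJC14, of the ER membrane, had medians of 3.16 and 1.23 FPKM in spring GV and MII oocytes and 4.8 and 1.08 in summer, with overlapping ranges. It fell in both seasons, at -1.02 ± 0.31 (SE, limma adjusted p = 0.0313) and -1.20 ± 0.38 (SE, limma adjusted p = 0.0312), and at -0.92 and -0.94 without the shallow libraries. Its spring call was lost without GV replicate 2 or MII replicates 1, 2, 4 and 5 (adjusted p 0.0514 to 0.0719, log2 fold changes -1.04 to -0.92), and its summer call without GV replicates 4 and 6 or MII replicates 1, 2, 3 and 5 (adjusted p 0.0572 to 0.0657, log2 fold changes -1.18 to -1.09). DNAJC7 and DNAJC9 rose in spring, and their values are given with the season comparisons. DNAJC18 fell in summer (log2 fold change -0.70 ± 0.24 SE, limma adjusted p = 0.0433), a call lost without GV replicates 1, 2, 4, 5 and 6 or MII replicates 1, 2, 3 and 5 (adjusted p 0.0534 to 0.0904, log2 fold changes -0.71 to -0.59), where replicate 2 of the GV libraries is the shallow one. DNAJC19, part of the mitochondrial import motor and the most abundant of the subfamily, had changes of 0.22 and 0.57 that did not pass (limma adjusted p = 0.432 and 0.137).

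Among the 8 genes listed as co-chaperones of HSP90, 2 rose and 2 fell in both seasons, 25% each beside 4.78% and 13.2% of all genes. FKBP4, PPID and DNAJC7, which also bind HSP90, were counted with their own families. AHSA1 (chromosome 10, 89715736 to 89723197), the activator of the HSP90 ATPase, ranged from 20.4 to 46.2 FPKM (median 39) in GV and from 58.5 to 102 FPKM (median 79.6) in MII oocytes in spring, without overlap (log2 fold change 1.12 ± 0.23 SE, limma adjusted p = 0.00473). In summer it ranged from 35 to 77.8 FPKM (median 42.6) in GV and from 50.7 to 92.7 FPKM (median 84.5) in MII oocytes (log2 fold change 0.72 ± 0.23 SE, limma adjusted p = 0.0297), with overlap. The summer call was lost without GV replicates 1, 3, 4 and 5 or MII replicates 1, 2, 3 and 6 (adjusted p 0.0543 to 0.0662, log2 fold changes 0.64 to 0.70); without shallow GV replicate 2 it was 0.87 (limma adjusted p = 0.00442). CDC37L1 (chromosome 8, 40077064 to 40092029), a relative of the kinase-loading co-chaperone CDC37, ranged from 1.89 to 3.2 FPKM (median 2.31) in GV and from 4.75 to 6.81 FPKM (median 5.92) in MII oocytes in spring and from 2.24 to 2.88 FPKM (median 2.5) in GV and from 4.06 to 6.71 FPKM (median 5.09) in MII oocytes in summer. It did not overlap between stages in either season (log2 fold changes 1.01 ± 0.16 SE, limma adjusted p = 0.00107, and 0.77 ± 0.14 SE, limma adjusted p = 0.00138) and passed in all 24 fits that left out 1 library.

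STIP1 (chromosome 29, 43111546 to 43124097), the adaptor that holds HSP70 and HSP90 together for client transfer, fell. It ranged from 1.88 to 6.12 FPKM (median 3.64) in GV and from 0.473 to 1.36 FPKM (median 1.13) in MII oocytes in spring and from 2.43 to 5.42 FPKM (median 4.69) in GV and from 0.911 to 2.12 FPKM (median 1.12) in MII oocytes in summer, without overlap in either (log2 fold changes -1.17 ± 0.25 SE, limma adjusted p = 0.00574, and -1.22 ± 0.19 SE, limma adjusted p = 4.40e-04). Within a library the ratio of STIP1 to AHSA1 had a median of 0.105 (0.0561 to 0.147) in GV and 0.0139 (0.00464 to 0.0232) in MII oocytes in spring and a median of 0.111 (0.0313 to 0.131) in GV and 0.0144 (0.0113 to 0.0242) in MII oocytes in summer, without overlap; this pair too was chosen after its values were seen. AHSA2, a relative of AHSA1, fell from a median of 0.16 to 0.065 FPKM in spring and from 0.172 to 0.054 FPKM in summer (limma adjusted p = 0.0197 and 0.00329). Its spring call was lost without MII replicate 2 (adjusted p = 0.0513, log2 fold change -0.13), and both calls were lost under quantile normalization (log2 fold change -0.10, limma adjusted p = 0.0755 in spring and log2 fold change -0.083, limma adjusted p = 0.085 in summer).

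The other 4 did not pass in either season with all libraries. CDC37 had log2 fold changes of -0.62 ± 0.27 (SE, limma adjusted p = 0.112) in spring and -0.39 ± 0.20 (SE, limma adjusted p = 0.166) in summer, opposite in sign to CDC37L1. CHORDC1, which binds HSP90, had values of 0.72 and 0.53, and PTGES3, which holds the closed state of HSP90, of 0.62 and 0.80 (limma adjusted p 0.054 to 0.367). Without the shallow libraries CHORDC1 was at 0.66 and 0.72 (limma adjusted p = 0.00832 and 0.0318) and PTGES3 at 0.57 and 1.12 (limma adjusted p = 0.215 and 0.0123). STUB1, the ubiquitin ligase that binds HSP70 and HSP90, stood at -0.18 in spring (95% interval -1.05 to 0.69) and -0.74 in summer (-1.58 to 0.089). None of the 6 BAG genes passed in either season by limma, while 2 in spring and 1 in summer had an unadjusted p under 0.05, as did 38.8% and 42.1% of all genes. BAG2, an inhibitor of STUB1 and the most abundant of them, ranged from 4.23 to 8.33 FPKM (median 6.55) in GV and from 1.84 to 9.07 FPKM (median 2.71) in MII oocytes in spring (log2 fold change -0.86 ± 0.30 SE, limma adjusted p = 0.0517), and without the shallow libraries its change was -1.05 (limma adjusted p = 0.00132). Spring MII replicate 6 alone held 9.07 FPKM. BAG6, which guards hydrophobic proteins on their way to the ER membrane, had log2 fold changes of -0.24 and -0.30 (limma adjusted p = 0.499 and 0.147).

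**Figure D3:**
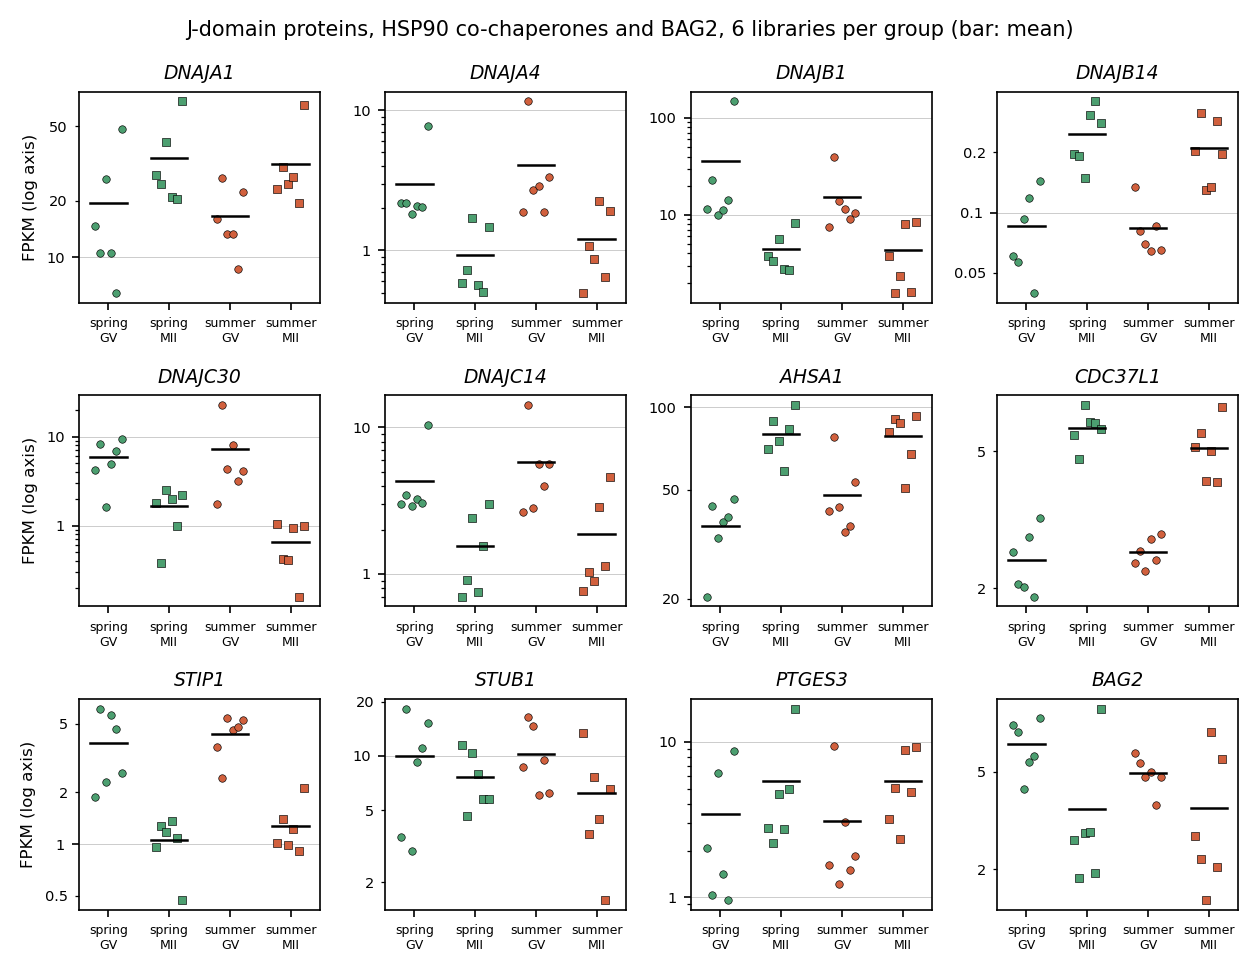
FPKM (log axis) of 6 J-domain genes, 5 HSP90 co-chaperones and BAG2 in the 24 libraries; circles are GV, squares MII, green spring, orange summer, and the bar is the mean of 6 libraries. AHSA1 and CDC37L1 lie higher and STIP1, DNAJB1 and DNAJC30 lower in MII oocytes, and the isolated GV points of DNAJB1 are replicate 6 in spring (148 FPKM) and replicate 2 in summer (39.7 FPKM).

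Of 13 cyclophilins, 2 rose and 2 fell in both seasons, 15.4% each, beside 4.78% and 13.2% of all genes. PPIA, the abundant cytosolic cyclophilin that binds cyclosporin, ranged from 42.6 to 71.6 FPKM (median 47.8) in GV and from 44.2 to 88.5 FPKM (median 68.5) in MII oocytes in spring and from 18.5 to 77.5 FPKM (median 59.7) in GV and from 48.7 to 96.5 FPKM (median 73.3) in MII oocytes in summer, and its changes of 0.34 and 0.45 did not pass (limma adjusted p = 0.272 and 0.32). The gene has near-identical pseudogene copies, and how reads shared with these were counted is not given in the sources used here. PPIB (chromosome 10, 45875014 to 45880920), the cyclophilin of the ER, was among the genes that fell furthest. Its spring values ran from 7.37 to 55.5 FPKM (median 8.53) in GV and from 0.721 to 7.99 FPKM (median 1.21) in MII oocytes, its summer values from 5.13 to 9.73 FPKM (median 7.43) in GV and from 0.596 to 2.42 FPKM (median 1.45) in MII oocytes, and its log2 fold changes were -2.16 ± 0.52 (SE, limma adjusted p = 0.0096) and -1.86 ± 0.22 (SE, limma adjusted p = 7.20e-05). In spring the stages overlapped through MII replicate 6 at 7.99 FPKM, and the highest GV value, 55.5 FPKM, was replicate 6. Without these the spring change was -2.06 (limma adjusted p = 8.47e-05).

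PPIH (chromosome 3, 104140113 to 104159896) and PPIL4, both nuclear proteins tied to splicing, rose. PPIH ranged from 2.42 to 4.61 FPKM (median 3.07) in GV and from 4.49 to 8.82 FPKM (median 6.7) in MII oocytes in spring and from 3.31 to 6.36 FPKM (median 4.25) in GV and from 5.46 to 10.1 FPKM (median 7.82) in MII oocytes in summer (log2 fold changes 0.85 ± 0.19 SE, limma adjusted p = 0.00701, and 0.67 ± 0.20 SE, limma adjusted p = 0.0213), with overlap in both. PPIL4 had medians of 0.665 and 2.36 FPKM in spring and 0.784 and 2.41 in summer (log2 fold changes 0.83 ± 0.20 SE, limma adjusted p = 0.011, and 0.67 ± 0.23 SE, limma adjusted p = 0.0455). Both summer calls depended on the libraries kept: PPIH was lost without GV replicate 3 or MII replicate 5 (adjusted p 0.0503 to 0.0519, log2 fold change 0.60 in both fits), and PPIL4 without GV replicates 1, 3, 4, 5 and 6 or MII replicates 2, 4, 5 and 6 (adjusted p 0.071 to 0.0961, log2 fold changes 0.58 to 0.68).

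PPIL2, a nuclear cyclophilin with a ubiquitin ligase domain, fell. Its values ran from 0.278 to 1.4 FPKM (median 0.568) in GV and from 0.0442 to 0.197 FPKM (median 0.0663) in MII oocytes in spring and from 0.564 to 1.29 FPKM (median 0.864) in GV and from 0.0508 to 0.132 FPKM (median 0.0924) in MII oocytes in summer, without overlap in either (log2 fold changes -0.58 ± 0.14 SE, limma adjusted p = 0.0102, and -0.77 ± 0.10 SE, limma adjusted p = 1.04e-04). Another 2 cyclophilins of the splicing machinery passed once. PPIG rose in spring (1.28 ± 0.27 SE, limma adjusted p = 0.00523), and PPIE fell in summer (-0.56 ± 0.17 SE, limma adjusted p = 0.0242), a call lost without GV replicates 3 and 5 or MII replicate 2 (adjusted p 0.0522 to 0.055, log2 fold changes -0.52 to -0.49) and under quantile normalization (log2 fold change -0.38, limma adjusted p = 0.148). PPID, a cyclophilin that binds HSP90, did not pass, at 0.41 and 0.26 (limma adjusted p = 0.414 and 0.605).

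Of 14 FKBP genes, 3 fell (21.4%, beside 13.2% of all genes) and 0 rose in both seasons by limma. At an unadjusted p under 0.05 there were 5 in spring and 6 in summer, beside 38.8% and 42.1% of all genes. FKBP2 (chromosome 29, 43159739 to 43162651), an ER isomerase, ranged from 7.46 to 17 FPKM (median 9.62) in GV and from 0.725 to 5.11 FPKM (median 1.09) in MII oocytes in spring and from 7.12 to 15.6 FPKM (median 11.5) in GV and from 0.236 to 4.26 FPKM (median 1.38) in MII oocytes in summer. The stages did not overlap, and the changes were -2.11 ± 0.33 (SE, limma adjusted p = 8.12e-04) and -2.36 ± 0.33 (SE, limma adjusted p = 2.32e-04). FKBP3, a nuclear isomerase, fell from a median of 1.13 to 0.366 FPKM in spring and from 1.28 to 0.301 FPKM in summer, also without overlap (log2 fold changes -0.82 ± 0.23 SE, limma adjusted p = 0.0231, and -0.78 ± 0.13 SE, limma adjusted p = 7.43e-04).

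FKBP4, an HSP90 co-chaperone of steroid receptors, ranged from 0.449 to 2.31 FPKM (median 1.53) in GV and from 0.192 to 0.907 FPKM (median 0.277) in MII oocytes in spring and from 0.537 to 7.97 FPKM (median 1.43) in GV and from 0.0469 to 1.04 FPKM (median 0.23) in MII oocytes in summer (log2 fold changes -0.78 ± 0.20 SE, limma adjusted p = 0.014, and -1.03 ± 0.36 SE, limma adjusted p = 0.0456), with overlap in both. Its highest summer GV value was that of shallow replicate 2, and the change without it was -0.68 (limma adjusted p = 0.0147). The summer call was lost without GV replicates 3, 4, 5 and 6 or MII replicates 1, 2, 3, 4 and 5 (adjusted p 0.0508 to 0.0851, log2 fold changes -1.12 to -0.96). FKBP7, an ER isomerase and the FKBP mRNA next to FKBP2 in abundance, had log2 fold changes of 0.51 and 0.89 (limma adjusted p = 0.308 and 0.0519). FKBP1A, the binder of FK506 and rapamycin, rose in spring without overlap (0.55 ± 0.14 SE, limma adjusted p = 0.0137) and had a value of 0.43 ± 0.15 (SE, limma adjusted p = 0.0518) in summer.

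**Figure D4:**
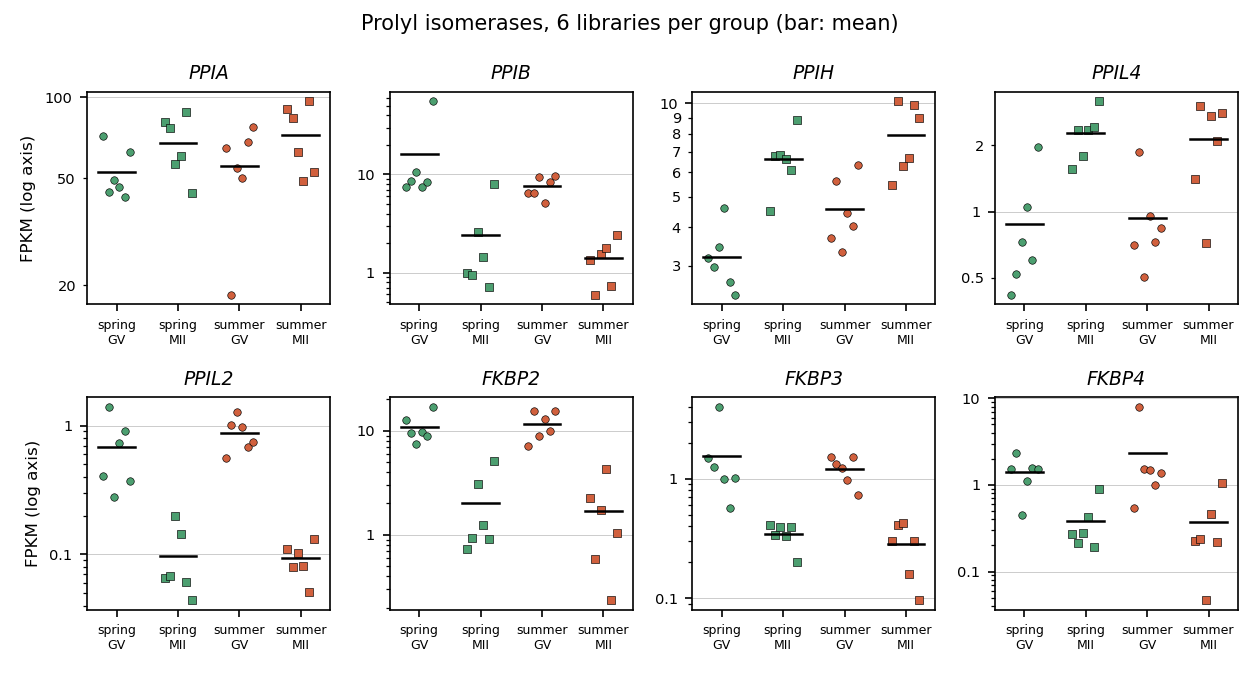
FPKM (log axis) of 8 prolyl isomerase genes in the 24 libraries; circles are GV, squares MII, green spring, orange summer, and the bar is the mean of 6 libraries. PPIB, PPIL2, FKBP2, FKBP3 and FKBP4 lie lower and PPIH and PPIL4 higher in MII oocytes, and PPIA overlaps between the stages.

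By site in the cell, members with opposite changes occurred side by side on the ER and nuclear lists, but not on the mitochondrial list. Of 7 mitochondrial members tested, DNAJA3, DNAJC15 and DNAJC30 fell in both seasons and 0 rose by limma, where 3 in spring and 4 in summer had an unadjusted p under 0.05, beside 38.8% and 42.1% of all genes. Of 16 members on the list for the ER, PPIB and FKBP2 fell and DNAJB14 rose, and DNAJC14, which also sits in the ER membrane but is not on that list, fell. Of 9 nuclear members, PPIL2 and FKBP3 fell while PPIH and PPIL4 rose. These counts stand beside the 18.0% of all genes that passed in both seasons, 13.2% lower and 4.78% higher. For 19 of the 90 genes the 95% interval of the change lay within -0.5 to 0.5 log2 units in both seasons. The most abundant of these were PPIL1, a spliceosomal cyclophilin (0.015, interval -0.25 to 0.28, in spring and -0.0019, -0.26 to 0.25, in summer), DNAJC3, an ER stress regulator (-0.032, -0.27 to 0.21, and -0.10, -0.23 to 0.019), and FKBP14 (0.090, -0.21 to 0.39, and 0.21, -0.045 to 0.46). All 19 lay under 1 FPKM on average, where the added 1 FPKM narrows such intervals, so they are not shown to be unchanged. Among the 19 were AHSA2, DNAJB14 and DNAJC15, which passed in both seasons, and FKBP9, which passed in summer. The matching share over all genes was not computed.

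The second question was whether the season changed these mRNAs at either stage. No member passed in GV or in MII oocytes by limma, nor did any of the 9526 genes, so the percentage of all genes called was 0 in both. At an unadjusted p under 0.05 there was 1 member in GV oocytes (1.55% of all genes) and 4 in MII oocytes (2.11%). The member in GV oocytes was DNAJC9, a nuclear histone chaperone, which ranged from 1.45 to 4.34 FPKM (median 2.55) in spring and from 3.54 to 4.85 FPKM (median 4.62) in summer (log2 fold change, summer minus spring, 0.66; two-sided exact permutation p = 0.00433, limma adjusted p = 1.0). All but 1 of the summer GV libraries lay above the highest spring library of 4.34 FPKM. The median difference over the members was 0.056 in GV and -0.040 in MII oocytes, beside 0.012 and -0.011 for all genes. Each season was collected in a single month, so season and collection date cannot be told apart.

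In MII oocytes the 4 members were all J-domain genes with lower values in summer. DNAJB12, of the ER membrane, ranged from 0.62 to 1.02 FPKM (median 0.722) in spring and from 0.249 to 0.555 FPKM (median 0.479) in summer, without overlap (log2 fold change -0.29; two-sided exact permutation p = 0.00216, which 924 assignments cannot undercut). It was the 1 member without overlap between seasons at this stage, beside 0.178% of all genes. DNAJC7, which binds both HSP70 and HSP90, ranged from 2.64 to 3.91 FPKM (median 3.63) in spring and from 1.96 to 3.14 FPKM (median 2.4) in summer (log2 fold change -0.34; exact permutation p = 0.013). DNAJC2, which works at the ribosome, had a difference of -0.35 (exact permutation p = 0.00649), and DNAJC30 one of -0.64 (exact permutation p = 0.0368). After adjustment over all genes the limma p of each was 1.0.

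**Figure D5:**
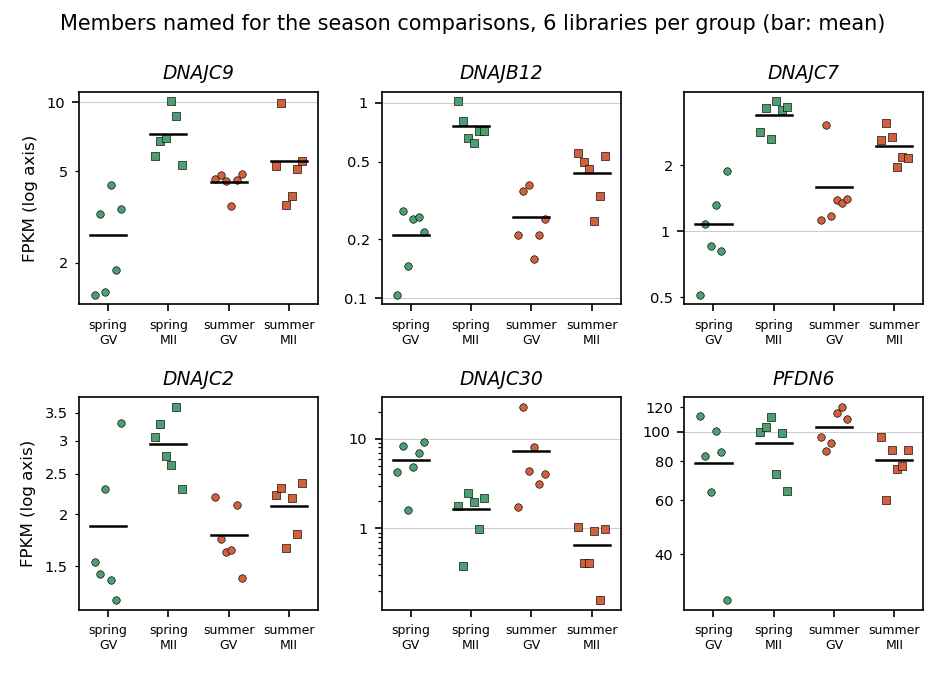
FPKM (log axis) of 6 genes named for the season comparisons in the 24 libraries; circles are GV, squares MII, green spring, orange summer, and the bar is the mean of 6 libraries. DNAJC9 lies higher in summer than in spring GV oocytes, DNAJB12 lies lower in all summer MII than in all spring MII libraries, and none of these differences passed after adjustment.

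The difference between the seasons in the maturation change, fitted over all 4 groups, passed for 0 members and 0 genes in all by limma, for 4 members at an unadjusted p under 0.05 (1.80% of all genes) and for 1, DNAJC9, under the thresholds of the study (0.210%). DNAJC9 rose in spring (1.23 ± 0.24 SE, limma adjusted p = 0.00375), with MII values from 5.34 to 10.1 FPKM (median 6.89), and stood at 0.20 ± 0.20 (SE, limma adjusted p = 0.489) in summer. The difference was -1.03 ± 0.31 log2 units (limma adjusted p = 1.0). DNAJC7 rose in spring (1.10 ± 0.18 SE, limma adjusted p = 0.00116) and stood at 0.45 ± 0.18 (SE, limma adjusted p = 0.0701) in summer, a difference of -0.65 ± 0.24. For DNAJB12 the difference was -0.35 ± 0.11, for FKBP9 -0.19 ± 0.089 and for PFDN6, the next in order, -0.66 ± 0.35 (limma adjusted p = 1.0 for each). A gene that passed in 1 season only is therefore not shown to differ between the seasons.

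The HSP genes and other folding factors that work with these helpers were counted from lists of symbols. Of 17 genes on the HSP list, 2 were higher and 1 lower in MII oocytes in spring, or 17.6% against 24.2% of all genes. In summer 1 was higher and 4 lower, or 29.4% against 30.7%. HSPBP1, which is on that list but is a nucleotide exchange factor of HSP70, was the 1 lower in spring. It fell in both seasons, at -1.97 (limma adjusted p = 0.024) and -2.61 (limma adjusted p = 4.04e-05). HSPA14, a ribosome-associated HSP70, rose in both, at 0.68 (limma adjusted p = 0.0406) and 0.90 (limma adjusted p = 5.13e-04). Of 40 other folding factors, 5 rose and 8 fell in spring, or 32.5% against 24.2% of all genes. In summer 6 rose and 14 fell, or 50% against 30.7%. The largest changes shared by both seasons were falls: UXT, a prefoldin-like protein, at -2.29 (limma adjusted p = 1.15e-04) and -2.17 (limma adjusted p = 1.11e-05), PIH1D1, of the R2TP complex that works with HSP90, at -1.92 (limma adjusted p = 8.23e-04) and -1.88 (limma adjusted p = 4.22e-05), and PIN4, a prolyl isomerase of the parvulin family, at -1.95 (limma adjusted p = 0.0028) and -1.69 (limma adjusted p = 0.00255).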

How the data were processed

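RNA-seq of 24 bovine oocyte libraries was analysed from the deposited table of 11306 genes. The authors amplified the mRNA with the Smart-seq2 v4 kit, trimmed the reads, aligned them with STAR 2.5.3a (per the processing notes) to UMD3.1.1 and deposited FPKM values. The strand setting of the counting is not given in the sources used here. From the values, every library sums to 86768.1 to 86768.2 FPKM and the minimum is 0.01, so a common scaling and an offset were applied. No read counts are listed, absolute depth is unknown and no counting error is given; relative depth was estimated from value steps in Python 3.11.15 (numpy 2.4.6, pandas 2.3.3; figures with matplotlib 3.10.9). A symbol at 2 loci was kept as 2 entries.

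Log2(FPKM + 1) was compared for the 9526 genes over 0.1 FPKM in at least 1 library with limma 3.58.1 in R 4.3.3 (trended moderation), with the 2 groups compared in a fit and all 4 groups for the season difference. Fold changes on this scale understate the changes of low genes. A gene passed at a Benjamini-Hochberg adjusted p under 0.05 over all 9526 genes; the authors used Partek and an unadjusted p under 0.05 with a fold over 2. Single genes had a two-sided exact permutation test over 924 assignments (smallest p 0.00216). The fits were tested on simulated data before use. The members, lists and tests were chosen with earlier results of these data known. Within each family the text names up to 5 members that passed in both seasons (up to 3 a direction), the 2 most abundant, every CCT and prefoldin subunit, members with an unadjusted season p under 0.05, the 5 smallest p of the season difference, symbols at more than 1 locus and the 3 most abundant members with both intervals within 0.5 log2 units of 0; the others were named after their values were seen. Alternatives were pseudocounts of 0.1 and none, no filter, a mean of at least 1 FPKM, median-of-ratios scaling, quantile normalization, robust moderation, a fit of all 4 groups, no shallow libraries, a replicate block, the thresholds of the study and leaving out each library.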

Additional observations from a re-analysis of the deposited data

Results flagged for a closer look

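In 57 of 244 sets of 6 libraries (the 61 members named with values, each in 4 groups), the highest or lowest value stood farther from its neighbour than the Dixon 95% limit for 6 values allows. The limit gives about 1 in 20 by chance for normally distributed values only, and FPKM without a log were used here. Members of the same library are not independent, and some were named after their values were seen. The 57 sets therefore cannot be compared with that rate. The 3 shallow libraries held 43 of the 57. Values are FPKM. Summer GV replicate 2 stood highest in its group for 18 of the members, namely DNAJA2 at 11.8 (next library 3.65), DNAJA3 at 1.66 (next library 0.842), DNAJA4 at 11.6 (next library 3.34), DNAJB1 at 39.7 (next library 13.8), DNAJB6 at 26.9 (next library 7.98), DNAJC30 at 22.7 (next library 8.05), DNAJC14 at 14.2 (next library 5.63), CCT5 at 30.2 (next library 8.26) and CCT6A at chromosome 2 at 1.9 (next library 0.010). The rest were CCT7 at 9.06 (next library 4.33), CCT8 at 38.8 (next library 17.1), FKBP4 at 7.97 (next library 1.53), PPIL4 at 1.86 (next library 0.956), CHORDC1 at 3.26 (next library 1.13), DNAJB9 at 1.03 (next library 0.149), PPIG at 7.37 (next library 3.21), PTGES3 at 9.45 (next library 3.06) and DNAJC7 at 3.07 (next library 1.4). Spring GV replicate 6 stood highest in its group for 14 of the members, namely DNAJA2 at 8.42 (next library 2.43), DNAJA4 at 7.67 (next library 2.19), DNAJB1 at 148 (next library 22.7), DNAJB6 at 26 (next library 7.6), DNAJC14 at 10.4 (next library 3.48), CCT4 at 7.04 (next library 2.52) and CCT5 at 26.9 (next library 6.99). The rest were CCT6A at chromosome 2 at 2.75 (next library 0.010), CCT8 at 28.7 (next library 11.7), TCP1 at 22 (next library 7.15), PFDN2 at 19.6 (next library 7.64), PPIB at 55.5 (next library 10.5), DNAJB9 at 45 (next library 3.25) and PPIG at 5.75 (next library 2.32). Spring MII replicate 6 stood highest in its group for 10 of the members, namely DNAJB6 at 19.9 (next library 9.03), CCT5 at 17.1 (next library 8.17), CCT6A at chromosome 2 at 5.61 (next library 0.472), BAG2 at 9.07 (next library 2.84) and FKBP4 at 0.907 (next library 0.427). The rest were PPIB at 7.99 (next library 2.58), CHORDC1 at 5.54 (next library 2.62), DNAJB9 at 0.458 (next library 0.135), DNAJC18 at 4.26 (next library 1.27) and PTGES3 at 16.4 (next library 4.98). It stood lowest for FKBP3 at 0.199 (next library 0.333). Summer MII replicate 6 stood highest for DNAJA1 at 64.9 (next library 30.3), DNAJC5 at 0.396 (next library 0.179) and PPIG at 9.14 (next library 4.92). Summer GV replicate 1 stood highest for DNAJB14 at 0.134 (next library 0.0862). Summer GV replicate 4 stood lowest for DNAJC9 at 3.54 (next library 4.55). Summer MII replicate 2 stood highest for DNAJC9 at 9.91 (next library 5.56) and DNAJB4 at 11.6 (next library 4.47). Spring MII replicate 3 stood highest for CCT3 at 3.78 (next library 2.4) and PFDN2 at 13.7 (next library 9.29). Spring GV replicate 3 stood highest for CCT6A at chromosome 25 at 1.89 (next library 0.098), FKBP3 at 3.98 (next library 1.5) and FKBP14 at 0.916 (next library 0.293). Summer MII replicate 4 stood highest for FKBP14 at 1.02 (next library 0.367) and DNAJB9 at 1.13 (next library 0.315). No member had a season difference that passed after adjustment, and no data outside the measured table were used.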

How the results depend on the processing

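Over the alternatives, none of the 58 passing member results changed direction. The spring count of 29 became 44 without the 3 shallowest libraries and 15 under the thresholds of the study, and the summer count of 29 became 14 under those thresholds, which also gave 1 member for the season difference in place of 0. Leaving out 1 library gave 26 (without spring MII replicate 2) to 39 (without spring GV replicate 6) members in spring, 22 (without summer GV replicate 3 or summer MII replicate 2) to 41 (without summer GV replicate 2) in summer, and 0 to 0 in the season comparisons. Of members that did not pass, CCT5 became 0.048, DNAJC3 0.088 and STUB1 0.028 log2 units in spring, and DNAJB6 0.070, DNAJC3 0.027 and PPIL1 0.13 in summer, under quantile normalization; DNAJC19 became -0.0094 and PPIL1 -0.078 in spring under median-of-ratios scaling; and without the shallow libraries DNAJC3 became 0.085 and STUB1 0.035 in spring, and CCT5 0.11 and DNAJB6 0.17 in summer. DNAJB9 became -0.17 in summer without a pseudocount. With 1 library left out, spring changes spanned -0.43 to 0.026 for STUB1, -0.030 to 0.077 for PPIL1, -0.40 to 0.24 for CCT5, -0.55 to 0.12 for DNAJB6, -0.065 to 0.042 for DNAJC3 and -0.078 to 0.65 for CCT6A at chromosome 2, and summer changes spanned -0.077 to 0.044 for PPIL1, -0.54 to 0.11 for CCT5, -0.52 to 0.17 for DNAJB6 and -0.12 to 0.18 for DNAJB9. The cause was not tested.

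Quantile normalization lost the calls of AHSA2 in both seasons and of DNAJC15, DNAJC18, FKBP9 and PPIE in summer, and called 37 members in spring and 43 in summer. The call of DNAJB4 in spring was lost without a pseudocount, those of PPIL4 and FKBP4 in summer without a filter, that of FKBP4 in summer with the block, and that of DNAJC18 in summer with all 4 groups in a fit. Numbers shared between groups do not mark the same animal in the labels, and deviations of same-numbered libraries correlated at -0.17 to 0.54 (spring stages), -0.28 to 0.65 (summer stages), -0.32 to 0.44 (GV) and -0.44 to 0.76 (MII), over 0.1 in 3, 4, 1 and 4 of 6 numbers; 2, 1, 1 and 4 of 6 correlated best with their own number. With the replicate number as a block, 39 members passed in spring and 33 in summer, and 0 in each season comparison. In the shallow libraries 6 to 10 members were at the minimum of 0.01, against 2 to 6 in the other libraries of their groups, and the part of depth in this was not tested.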
